A study of Mus musculus with 16 samples.

Results

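The 34 genes described here act in mitosis, and they were taken by symbol from a gene table of bulk RNA sequencing of 16 mouse lung tumors. All 34 symbols were found among the 24016 entries used, and all 34 were among the 13123 genes tested. The tumors were small cell lung cancers, a fast-growing neuroendocrine cancer, with 8 labelled sgControl RPP and 8 labelled sgKdm5a RPP. Each came from an H11-LSL-Cas9 mouse on a mixed B6;129 background, in which Cre switches on the Cas9 nuclease from the ubiquitous CAG promoter. At 2 to 4 months of age the mice received adenovirus through the trachea that carried Cre under the CMV promoter, which is not limited to a cell type, together with sgRNAs. The labels do not spell out RPP; it is known in this model to stand for guides to Rb1, Trp53 and Rbl2, which both groups then share. Tumors labelled sgKdm5a had a further guide, to Kdm5a, which encodes an enzyme that removes methyl groups from histone H3, and the study compared KDM5A-mutant with wild-type tumors. Tumors were taken at the study endpoint. Cas9 leaves different edits in different cells, and each tumor was read as bulk tissue that also holds cells of the host. The table heads its columns with mouse numbers, so each library is taken as 1 animal.

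Mitosis genes are switched on together late in the cell cycle. In resting cells the DREAM complex, which contains the pocket protein p130 encoded by Rbl2, holds many of them off at a promoter element called the cell cycle genes homology region (CHR). In dividing cells the same element is used by B-MYB, encoded by Mybl2, and by FOXM1, often beside CCAAT boxes bound by NF-Y. Their products drive entry into mitosis, build the spindle, attach chromosomes to it, and are then partly destroyed by the anaphase-promoting complex (APC/C). In small cell lung cancer they are known for high RNA levels, since the tumor cells divide rapidly and lack RB.

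Promoters from RefSeq on GRCm38.p6, 250 bases before and 50 after each annotated start, were available for 28 of the 34 genes, as 30 promoters because 2 genes had a pair of starts. The CHR letters TTTGAA, or TTCAAA on the other strand, stood in 73.3% of these promoters and in 17.9% of all 32851 promoters in the table. Within 60 bases before to 40 after the start they stood in 60.0% of the mitosis gene promoters and in 5.08% of all promoters. CCAAT, or ATTGG on the other strand, stood in 73.3% against 37.4%, and the variant TTCGAA, the same on both strands, in 10.0% against 1.56%. Either CHR form together with CCAAT stood in 66.7% of the mitosis gene promoters and in 7.52% of all. The E2F letters GCGGGAA, or TTCCCGC, stood in 0 of the 30 and in 4.60% of all. None of these motifs contains another. A match is a description of the letters and not a bound site. Only these exact letters were searched, so an element counted as absent may be present in another form. Promoters of Aurkb, Ccna2, Cdc25c, Foxm1, Kif20a and Tpx2 were not used here.

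The 150 bases before the start are shown, 5′ to 3′ along each gene's strand, first for genes that carry both elements. They are Cdk1 (chr10:69352913-69353062, minus strand), Ube2c (chr2:164769779-164769928, plus strand), Top2a (chr11:99024190-99024339, minus strand) and Mki67 (chr7:135716380-135716529, minus strand). Capitals mark the CHR letters, their variant and the CCAAT box on either strand.
Cdk1: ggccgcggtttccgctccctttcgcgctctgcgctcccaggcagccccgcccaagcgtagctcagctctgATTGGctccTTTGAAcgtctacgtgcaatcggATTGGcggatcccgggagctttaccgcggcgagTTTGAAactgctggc
Ube2c: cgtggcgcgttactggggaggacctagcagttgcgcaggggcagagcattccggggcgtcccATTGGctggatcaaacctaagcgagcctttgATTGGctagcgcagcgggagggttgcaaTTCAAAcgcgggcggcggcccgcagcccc
Top2a: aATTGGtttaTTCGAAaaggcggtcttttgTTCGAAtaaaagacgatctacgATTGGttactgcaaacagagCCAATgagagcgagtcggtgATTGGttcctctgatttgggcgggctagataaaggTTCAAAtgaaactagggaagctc
Mki67: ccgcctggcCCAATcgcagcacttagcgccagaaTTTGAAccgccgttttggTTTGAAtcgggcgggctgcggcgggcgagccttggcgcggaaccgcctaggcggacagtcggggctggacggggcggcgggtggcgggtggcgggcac
In Cdk1, Ube2c and Top2a a CHR match began 15, 29 and 23 bases before the start, with CCAAT boxes farther upstream. In Mki67 the CHR matches lay at 98 and 116 bases before the annotated start.

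Windows of the same length are shown for genes whose group differences stood at the edges of the set. Nusap1 (chr2:119618148-119618297, plus strand) had the lowest difference once sgControl tumor 1 was left out, and Aurka (chr2:172370571-172370720, minus strand) and Mybl2 (chr2:163054485-163054634, plus strand) had the highest. Capitals have the same meaning.
Nusap1: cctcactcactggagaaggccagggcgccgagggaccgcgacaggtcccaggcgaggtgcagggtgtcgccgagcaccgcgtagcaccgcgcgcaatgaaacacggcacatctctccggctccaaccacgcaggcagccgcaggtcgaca
Aurka: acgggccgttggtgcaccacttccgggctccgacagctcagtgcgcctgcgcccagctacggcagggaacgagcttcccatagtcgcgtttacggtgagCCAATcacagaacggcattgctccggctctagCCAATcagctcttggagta
Mybl2: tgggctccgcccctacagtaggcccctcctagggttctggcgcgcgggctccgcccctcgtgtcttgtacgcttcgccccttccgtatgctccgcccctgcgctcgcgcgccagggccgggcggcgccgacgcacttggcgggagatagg
Aurka had CCAAT boxes and a CHR match 33 bases into the transcript, whereas Nusap1 and Mybl2 held none of these motifs in the whole promoter. Birc5, Mad2l1 and Nuf2 held none either. Whether genes with and without a match differ between the groups was not tested.

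**Figure D1:**
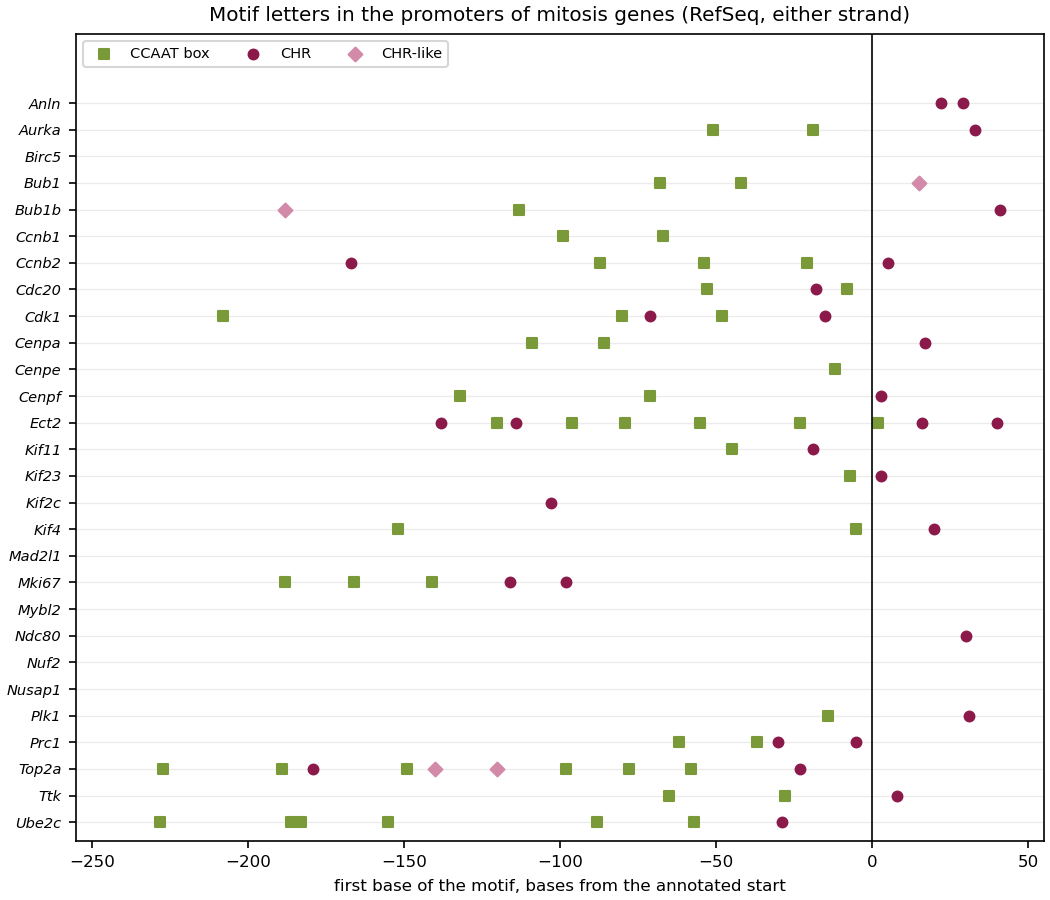
Positions of motif letters in the promoters of the 28 mitosis genes with a RefSeq entry. The x axis gives the first base of each match in bases from the annotated start, rows are genes with both starts of Ect2 and Prc1 drawn in the same row, and symbols stand for the CCAAT box, TTTGAA (CHR) and TTCGAA (CHR-like) on either strand. Most CHR matches gather around the start, but some lie farther upstream, as in Mki67 at -98 and -116 and in Kif2c at -103.

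The table's unit was read as FPKM (fragments per kilobase, corrected for the size of each library), so levels can be compared between genes per length. The reading depth of the libraries is unknown. One library stood apart: in sgControl tumor 1 the median tested gene had 2.38 FPKM, against 10.0 to 12.3 FPKM in the other 15, and the single entry Mir6236 held 88.9% of its summed FPKM, against 5.76% to 15.2%. The RNA of Kdm5a itself was higher in the sgKdm5a-labelled tumors, with 8.16 to 17.3 FPKM, than in the sgControl-labelled tumors, with 3.28 to 8.06 FPKM. An edit need not lower the RNA of its gene, so this level does not tell whether Kdm5a was edited. The groups are named by label throughout. Neuroendocrine markers were present, with 8 of 8 tested, none at 0 in any tumor, and a summed level of 670 to 12784 FPKM. Mouse numbers fell in a series from 190 to 238 (7 sgControl-labelled and 4 sgKdm5a-labelled tumors) and a series from 839 to 893 (1 and 4). What the series stand for is not stated.

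All 34 mitosis genes lay above the median level of the tested genes, and 9 lay in the uppermost decile. Without sgControl tumor 1, the mean level ran from 177 FPKM for Ube2c, the E2 ubiquitin-conjugating enzyme of the APC/C, down to 14.5 FPKM for Mybl2. The others in that decile were Top2a, Prc1, Cdc20, Ccna2, Birc5, Cdk1, Mki67 and Ccnb1.

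Compared between the groups, 0 of the 34 mitosis genes passed the test across all genes (limma on log2(FPKM + 1), Benjamini-Hochberg adjusted p under 0.05). The background was low as well, with 1 of 13123 genes called higher in the sgKdm5a-labelled tumors (0.00762%) and 0 called lower (0%). The smallest adjusted p among the mitosis genes was 0.852. At an unadjusted p under 0.05, 1 mitosis gene was lower, Mki67, and 0 were higher, against a background of 0.701% lower and 3.72% higher. Every difference below is the sgKdm5a-labelled minus the sgControl-labelled mean on the log2(FPKM + 1) scale, which understates changes of low values. No mitosis gene had groups that did not overlap, with or without sgControl tumor 1; over all tested genes this held for 0% lower and 0.0838% higher with it, and for 0.0152% lower and 0.0838% higher without it.

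As a set the mitosis genes lay to the lower side of the other genes. Their median log2 difference was -0.12, whereas that of all tested genes was 0.21, and 31 of 34 lay below the all-gene median. Single differences ran from -0.55 (Mki67) to 0.70 (Aurka), and 24 of 34 were below 0, against 23.0% of all tested genes. Single tumors shifted nearly the whole set, so the genes are not separate observations. Counts of genes, here and below, are thus no test of the set, and its level per tumor overlapped between the groups. With sgControl tumor 1 left out, 32 of 34 were below 0, against 51.8% of all tested genes, and the median difference was -0.31, which is 0.30 below that of all genes. Leaving out certain other tumors singly moved the median towards 0, to -0.05 without sgControl tumor 3 (18 of 34 below 0) or tumor 4 (20 of 34), to -0.04 without sgControl tumor 6 (22 of 34), and to -0.06 without sgKdm5a tumor 2 (26 of 34) or tumor 8 (20 of 34). It then lay 0.27 to 0.30 below that of all genes. With sgControl tumor 1 left out, 11 mitosis genes were lower and 0 higher at an unadjusted p under 0.05 (background 5.12% and 3.71%), 0 were called after adjustment, and the smallest adjusted p was 0.409. Scaling every library to a common median gave 32 below 0, 12 lower and 0 higher at an unadjusted p under 0.05 (background 5.2% and 4.74%) and a smallest adjusted p of 0.343. With both changes together, 8 were lower and 0 higher (background 4.59% and 4.07%). Aurka and Mybl2 were the 2 genes above 0 in either of these fits. With the mice numbered 190 to 238 alone, which include sgControl tumor 1, 30 of 34 were below 0, the median was -0.28 against 0.24 for all tested genes, and 0 reached an unadjusted p under 0.05 (background 0.632% lower and 4.5% higher). After adjustment 0 of the 34 were called there, against 0.0457% of all genes higher and 0% lower. The 839 to 893 series held 1 sgControl-labelled tumor, sgControl tumor 5, too few for its own value.

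**Figure D2:**
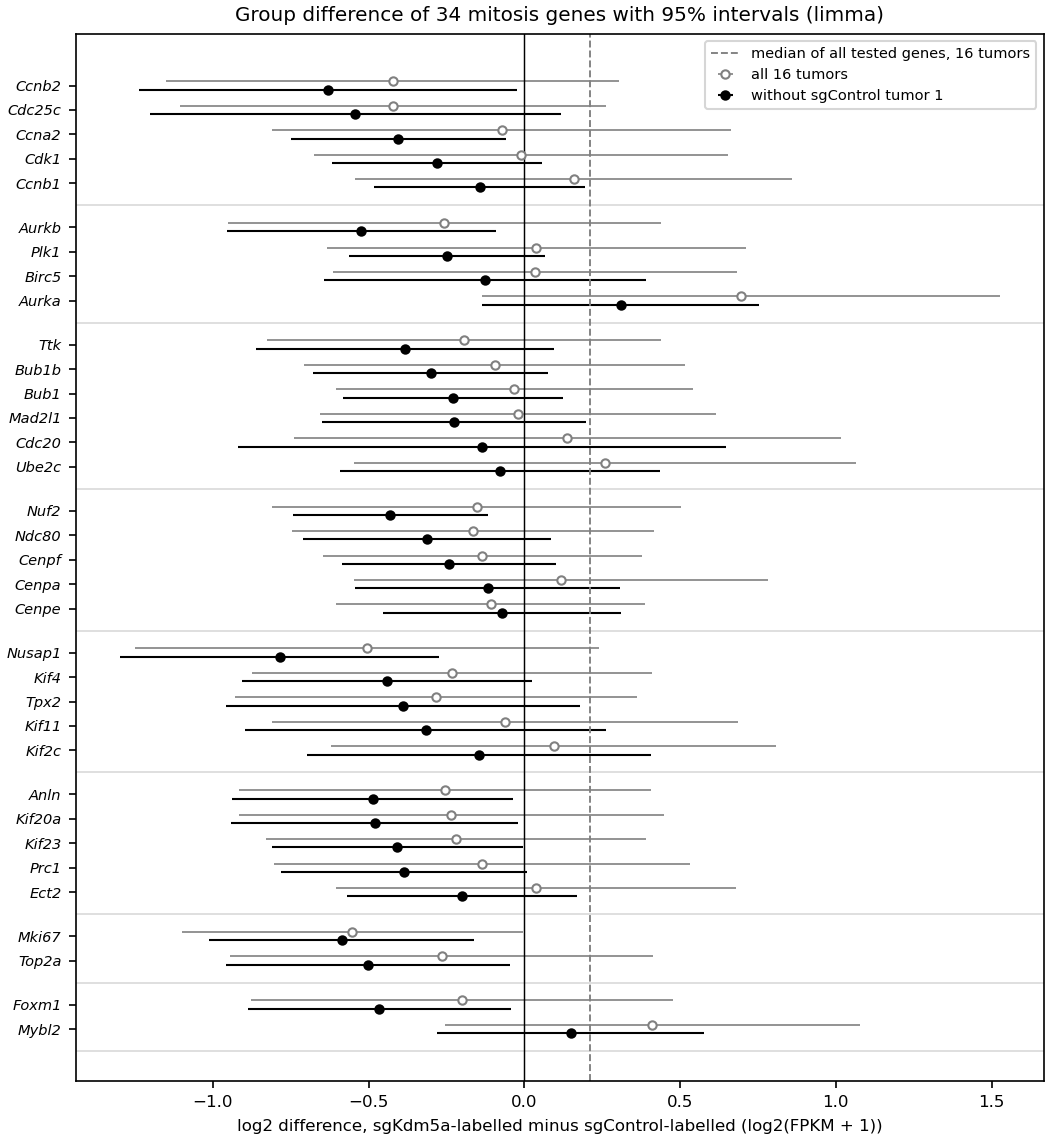
Log2 difference of each mitosis gene between sgKdm5a-labelled and sgControl-labelled tumors (x axis, log2(FPKM + 1) scale) with 95% intervals from limma, in blocks by role. Open symbols use all 16 tumors and filled symbols leave out sgControl tumor 1. The dashed line marks the median of all tested genes with 16 tumors, 0.21. Most points move left when the tumor is left out, and Aurka and Mybl2 stay above 0.

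No tested marker of another cell type passed the test (limma, adjusted p at least 0.852). By the group medians, all 5 fibroblast, 6 macrophage, 5 endothelial, 5 alveolar type 2, 5 T and NK, and 5 B and plasma cell markers were higher in the sgKdm5a-labelled tumors, with or without sgControl tumor 1, against 59.3% of all tested genes with it and 50.3% without it. The summed fibroblast markers had a median of 61.3 FPKM (11.0 to 379) in the sgControl-labelled and 234 FPKM (22.6 to 679) in the sgKdm5a-labelled tumors. For macrophages the medians were 197 FPKM (21.5 to 2100) and 547 FPKM (200.1 to 1324), and for endothelium 31.2 FPKM (10.5 to 120) and 70.6 FPKM (26.1 to 84.8). Alveolar markers had medians of 76.2 FPKM (9.93 to 5182) and 634 FPKM (22.4 to 2752). The T and NK sums were 7.29 FPKM (0.594 to 29.2) and 10.7 FPKM (6.10 to 16.5), and the B and plasma sums 21.5 FPKM (2.12 to 394) and 43.1 FPKM (9.29 to 755). Neuroendocrine markers were higher by median for 6 of 8, with sums of 3168 and 4753 FPKM. Neutrophil markers were higher for 3 of 4 and ciliated markers for 2 of 4. In these lists the markers at 0 in at least 1 tumor were Lamp3, Cd3e, Cd3g, Gzma, Nkg7, Ms4a1, S100a8 and Retnlg. Their part in the mitosis gene differences was not tested. In bulk tumors, fewer dividing cells and less RNA per cell cannot be told apart.

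Mki67 encodes Ki-67, a protein that coats mitotic chromosomes and is the standard stain for dividing cells. Its level ran from 63.2 FPKM through a median of 101 FPKM to 133 FPKM in the sgControl-labelled tumors, and from 36.9 through 69.8 to 88.3 FPKM in the sgKdm5a-labelled tumors. The groups overlapped, but 5 of 8 sgControl-labelled tumors exceeded every sgKdm5a-labelled tumor, and 0 of 8 sgKdm5a-labelled tumors exceeded the sgControl median, which held for 2.46% of all tested genes. The log2 difference was -0.55 ± 0.26 (SE; limma, adjusted p = 0.852), and -0.59 ± 0.20 without sgControl tumor 1 (adjusted p = 0.461). A two-sided exact permutation test over 12870 assignments of the tumors, for this gene alone, gave p = 0.0132 on log2(FPKM + 1) and p = 0.0138 after each library was divided by its median. Mki67 had the lowest difference of the 34 genes, and these 2 values are not adjusted for that choice. They also take no account of the mouse number series. By limma, Mki67 did not reach an unadjusted p under 0.05 in mice 190 to 238 alone or with the series as a covariate. The same held when most single tumors were left out in turn. Mki67 was among the 4 mitosis genes that were not at their lowest in sgControl tumor 1.

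Top2a encodes topoisomerase IIα, which untangles sister chromatids. It spanned 38.1, 128 and 237 FPKM (lowest, median and highest) in the sgControl-labelled tumors and 67.3, 103 and 181 FPKM in the sgKdm5a-labelled tumors. The lowest value belonged to sgControl tumor 1, and 1 of 8 sgKdm5a-labelled tumors, tumor 5, lay above the sgControl median. The log2 difference was -0.27 ± 0.33 with all tumors (limma, adjusted p = 0.869) and -0.50 ± 0.22 without sgControl tumor 1 (adjusted p = 0.531). Over the 16 tumors Mki67 and Top2a varied together, each taken as log2 of FPKM over the library median: Pearson r was 0.65 (permutation p = 0.0059, 0.0236 adjusted over 4 such pairs) and Spearman rho 0.62 (adjusted p = 0.0489). Without sgControl tumor 1 rho was 0.59 with an adjusted permutation p of 0.075, past the threshold no longer, while r was 0.66 (adjusted p = 0.0287). Without the 2 tumors farthest from the Mki67 median r was 0.55 (p = 0.0405 by permutation) and rho 0.49 (p = 0.0793), and within mice 190 to 238 r was 0.70 over 11 tumors.

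**Figure D3:**
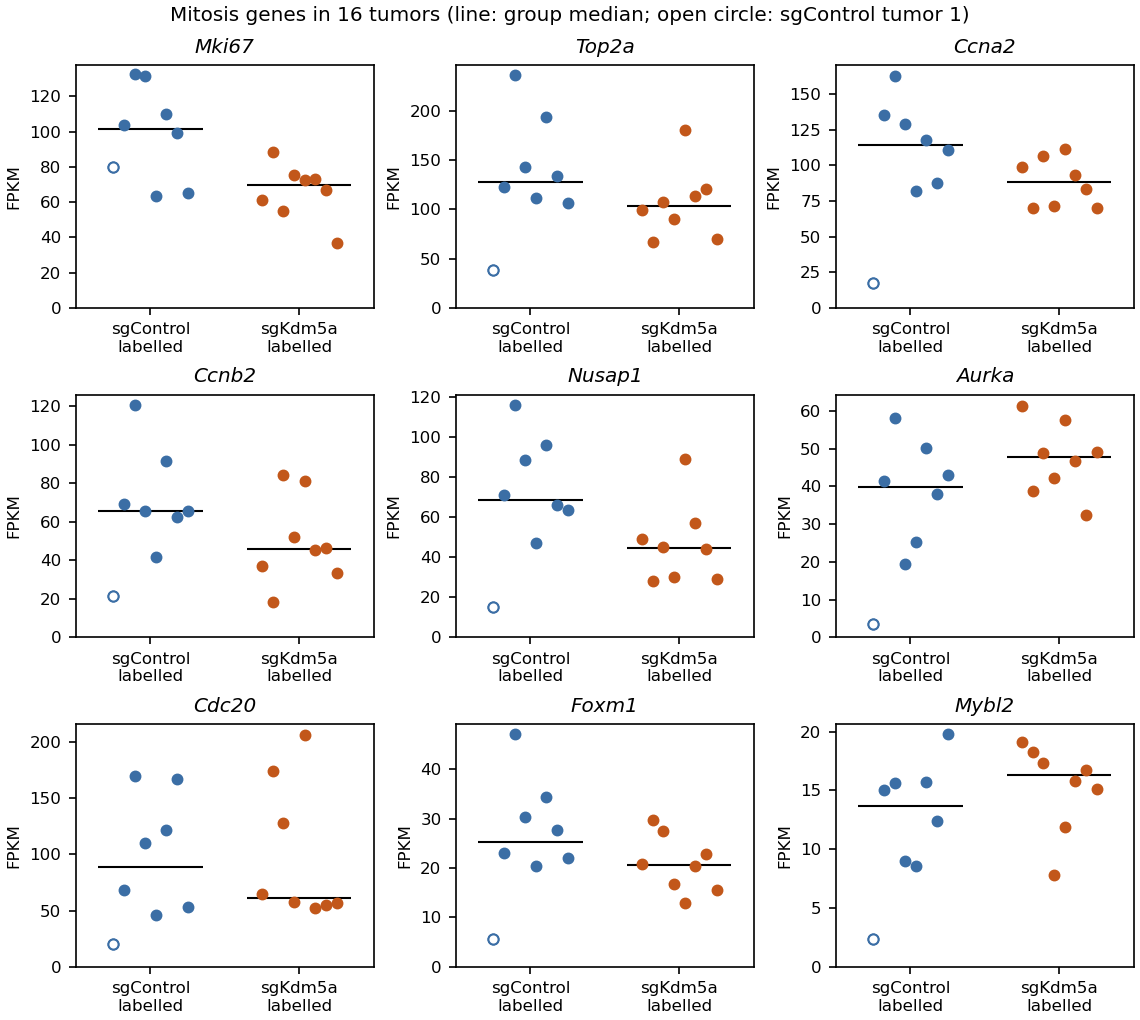
FPKM of 9 mitosis genes in each tumor (y axis, linear from 0), with sgControl-labelled tumors in blue and sgKdm5a-labelled tumors in orange. Each point is 1 tumor, the horizontal line is the group median over 8 tumors, and the open circle is sgControl tumor 1. The groups overlap in every panel. For Mki67 and Ccna2 no sgKdm5a-labelled tumor lies above the sgControl median, and for Aurka and Mybl2 6 of 8 do.

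Among the cyclins, CDK1 and its activator, 4 of 5 had differences below 0 with all tumors and 5 of 5 without sgControl tumor 1. Ccna2 encodes cyclin A2, which works with CDK1 and CDK2 from S phase into early mitosis. Its values were 17.5, 114 and 163 FPKM (lowest, median, highest) in the sgControl-labelled and 69.8, 88.5 and 112 FPKM in the sgKdm5a-labelled tumors. All 8 sgKdm5a-labelled tumors lay below the sgControl median, while sgControl tumor 1 lay far below every other tumor. The difference was -0.07 ± 0.36 with it and -0.40 ± 0.16 without it (limma, adjusted p = 0.966 and 0.509). Where Exosc9 overlaps Ccna2 on the other strand their reads may be shared, since the strand setting of the counting is not given in the sources used here.

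Cdk1, the kinase that triggers mitosis, stood at 20.5, 101 and 118 FPKM against 63.8, 74.7 and 105 FPKM. In 4 sgControl-labelled tumors it exceeded every sgKdm5a-labelled tumor, and the difference was -0.01 ± 0.32 (adjusted p = 0.995), or -0.28 ± 0.16 without sgControl tumor 1 (adjusted p = 0.652). Ccnb1, cyclin B1 and the main partner of CDK1, stood at 13.6, 69.4 and 122 FPKM against 56.6, 66.5 and 94.5 FPKM. The medians were close and the ranges overlapped. Its difference was 0.16 ± 0.34 (adjusted p = 0.914), turned to -0.14 ± 0.16 without sgControl tumor 1 and to -0.10 with median scaling. Transcripts of Ccnb1 are uncertain, because 4 pseudogenes not listed in the table match its transcript at 96.6% to 99.2% identity.

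Cdc25c, a phosphatase that activates CDK1, ran through 8.95, 16.1 and 28.6 FPKM in the sgControl-labelled and 5.73, 12.5 and 23.5 FPKM in the sgKdm5a-labelled tumors. The sgKdm5a-labelled tumors 1, 7 and 8 were low and tumor 5 was high. Its difference was -0.42 ± 0.33 (adjusted p = 0.852). Ccnb2, cyclin B2, was chosen after its values were seen, as a gene whose level separated from that of Ccnb1. It had -0.42 ± 0.35 with all tumors and -0.63 ± 0.29 without sgControl tumor 1 (adjusted p = 0.852 and 0.552). The ratio of Ccnb2 to Ccnb1 was 0.613 to 1.59 (median 0.995) in the sgControl-labelled and 0.280 to 1.08 (median 0.704) in the sgKdm5a-labelled tumors. The lowest ratio was in sgKdm5a tumor 2 and the groups overlapped.

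In the group of Aurora and Polo kinases with survivin, Aurka had the highest difference of all 34 genes. Aurora A, its product, matures centrosomes and builds the spindle together with TPX2. Levels were 3.48, 39.7 and 58.0 FPKM (lowest, median, highest) in the sgControl-labelled and 32.3, 47.8 and 61.4 FPKM in the sgKdm5a-labelled tumors. Of the sgControl-labelled tumors, 3 lay below every sgKdm5a-labelled tumor, namely tumors 1, 4 and 5, and the groups overlapped elsewhere. The difference was 0.70 ± 0.40 (limma, adjusted p = 0.852). It was 0.31 ± 0.21 without sgControl tumor 1 (adjusted p = 0.717) and 0.46 with median scaling.

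Birc5, survivin, which targets Aurora B to centromeres, was at 37.6, 88.4 and 166 FPKM against 57.2, 79.9 and 152 FPKM. Its groups overlapped almost fully, with a difference of 0.03 ± 0.31 (adjusted p = 0.979), or -0.13 ± 0.24 without sgControl tumor 1. Aurkb, Aurora B of the chromosomal passenger complex, had -0.26 ± 0.34, or -0.52 without that tumor (adjusted p = 0.500). Plk1, Polo-like kinase 1, had 0.04 ± 0.33, or -0.25 without it. With that tumor left out and values divided by the library median, Plk1 was the least variable of the 34 genes.

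Spindle checkpoint genes hold the APC/C off until every chromosome is attached, and CDC20 and UBE2C then serve APC/C activity. In this group of 6, 4 had differences below 0 with all tumors and 6 without sgControl tumor 1, all at unadjusted p over 0.05. Ube2c stood at 25.5, 163 and 307 FPKM (lowest, median, highest) in the sgControl-labelled and 114, 162 and 245 FPKM in the sgKdm5a-labelled tumors. The medians were nearly the same, and 4 of 8 sgKdm5a-labelled tumors lay on each side of the sgControl median. Its difference was 0.26 ± 0.39 (limma, adjusted p = 0.884), -0.08 ± 0.24 without sgControl tumor 1, with a 95% interval from -0.59 to 0.43. For the checkpoint kinases Bub1, Bub1b (BubR1) and Ttk (MPS1) and for Mad2l1 (MAD2) the differences were -0.03, -0.10, -0.19 and -0.02 with all tumors. Without sgControl tumor 1 they were -0.23, -0.30, -0.38 and -0.23.

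Cdc20, chosen after its values were seen, was the most variable of the 34 genes when divided by the library median, sgControl tumor 1 left out. It spread over 19.9, 89.1 and 170 FPKM in the sgControl-labelled and 52.4, 61.1 and 206 FPKM in the sgKdm5a-labelled tumors. Tumors 2, 3 and 5 of the sgKdm5a-labelled group were high and the other 5 were close together and low, so that each group held high and low tumors. The difference was 0.14 ± 0.42 (limma, adjusted p = 0.942), or -0.13 ± 0.37 without sgControl tumor 1.

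Centromere and kinetochore genes had differences from -0.16 to 0.12 with all tumors, and from -0.43 to -0.07 without sgControl tumor 1. Cenpa encodes the histone H3 variant that marks the centromere, with 15.9, 61.4 and 97.3 FPKM against 42.1, 52.8 and 84.8 FPKM, and the groups overlapped. Its difference was 0.12 ± 0.32 (limma, adjusted p = 0.931), or -0.12 ± 0.20 without sgControl tumor 1. Ndc80 encodes the microtubule-binding subunit of the NDC80 complex, with 23.4, 54.9 and 71.3 FPKM against 33.2, 40.3 and 73.5 FPKM. In sgKdm5a tumor 5 it was higher than in any other tumor, and the other 7 lay below the sgControl median. Its difference was -0.16 ± 0.28 (adjusted p = 0.899), or -0.31 ± 0.19. Its complex partner Nuf2 had -0.15 ± 0.32, or -0.43 without sgControl tumor 1 (adjusted p = 0.461). The large kinetochore proteins encoded by Cenpe (a motor) and Cenpf had -0.11 and -0.14, or -0.07 and -0.24.

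Spindle motors and assembly factors included the gene with the lowest difference without sgControl tumor 1. Nusap1, a protein that bundles spindle microtubules, had 15.2, 68.5 and 116 FPKM (lowest, median, highest) in the sgControl-labelled and 28.3, 44.6 and 89.2 FPKM in the sgKdm5a-labelled tumors. Only sgKdm5a tumor 5 among that group exceeded the sgControl median, and the groups overlapped. The difference was -0.50 ± 0.36 (limma, adjusted p = 0.852), and -0.79 ± 0.24 without sgControl tumor 1 (adjusted p = 0.409). Its mean was then 78.4 ± 23.2 FPKM (SD, n = 7) against 46.5 ± 20.2 FPKM (SD, n = 8).

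Tpx2, which activates Aurora A on spindle microtubules, had 34.9, 50.5 and 180 FPKM against 35.2, 44.9 and 66.9 FPKM. The value of 180 FPKM came from sgControl tumor 4 and lay far above the next. Its difference was -0.28 ± 0.31 (adjusted p = 0.860). The kinesins Kif11 (Eg5, which pushes spindle poles apart), Kif2c (MCAK, which shortens microtubules) and Kif4 (a chromosome-bound motor) had -0.06, 0.09 and -0.23, or -0.32, -0.15 and -0.44 without sgControl tumor 1.

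Aurka and Tpx2 act as partners but did not rank the tumors alike over the whole set. Pearson r was -0.48 (permutation p = 0.0496, 0.0661 adjusted over 4 pairs) and Spearman rho 0.14 (adjusted p = 0.594). In sgControl tumors 1 and 4 Aurka was low and Tpx2 high for the library. Without these 2 tumors, the farthest from the Aurka median, r was 0.77 and rho 0.71 (p = 0.00084 and 0.00648 by permutation), so the negative value rests on them. Within mice 190 to 238, which include both, r was -0.71 over 11 tumors (permutation p = 0.0211), and -0.52 with sgControl tumor 1 left out. The ratio of Aurka to Tpx2, chosen after its values were seen, was 0.0996 in sgControl tumor 1, 0.108 in tumor 4 and 0.677 to 0.888 in the other sgControl-labelled tumors. In the sgKdm5a-labelled tumors it was 0.801 to 1.19.

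Among the central spindle and cytokinesis genes, 4 of 5 were below 0 with all tumors and 5 of 5 without sgControl tumor 1. Anln encodes anillin, a scaffold of the cleavage furrow, with 8.96, 32.1 and 47.7 FPKM (lowest, median, highest) in the sgControl-labelled and 11.8, 27.4 and 39.1 FPKM in the sgKdm5a-labelled tumors. In 1 of 8 sgKdm5a-labelled tumors, tumor 5, it exceeded the sgControl median. The difference was -0.26 ± 0.32 (limma, adjusted p = 0.869), or -0.49 ± 0.21 without sgControl tumor 1 (adjusted p = 0.538). Prc1, which crosslinks the antiparallel microtubules of the central spindle, stood at 29.1, 123 and 148 FPKM against 57.3, 96.7 and 148 FPKM. Again sgKdm5a tumor 5 was the only one of its group above the sgControl median. Its difference was -0.13 ± 0.32 (adjusted p = 0.921), or -0.39 ± 0.19. The kinesins Kif20a (MKLP2) and Kif23 (MKLP1) had -0.23 and -0.22, or -0.48 and -0.41, and Ect2, the exchange factor that activates RhoA for the furrow, had 0.04, or -0.20. Kif20a, Kif4 and Prc1 overlap Cdc23, Pdzd11 and Rccd1 on the other strand.

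The 2 transcription factors that drive the program differed in direction. Foxm1 had 5.68, 25.3 and 47.1 FPKM (lowest, median, highest) in the sgControl-labelled and 12.9, 20.6 and 29.7 FPKM in the sgKdm5a-labelled tumors. Of the sgControl-labelled tumors 3 lay above every sgKdm5a-labelled tumor, and 2 of 8 sgKdm5a-labelled tumors lay above the sgControl median. The difference was -0.20 ± 0.33 (limma, adjusted p = 0.895), or -0.47 ± 0.20 without sgControl tumor 1 (adjusted p = 0.527). Mybl2 had 2.32, 13.7 and 19.8 FPKM against 7.77, 16.3 and 19.1 FPKM. The groups overlapped, and 6 of 8 sgKdm5a-labelled tumors lay above the sgControl median. Its difference was 0.41 ± 0.32 (adjusted p = 0.852) and 0.15 ± 0.20 without sgControl tumor 1, with a 95% interval from -0.28 to 0.58. A pseudogene, Gm3320, matches part of the Mybl2 transcript. Whether the differences of Foxm1 and Mybl2 differ from each other was not tested.

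Foxm1 and Plk1, whose kinase phosphorylates FOXM1, varied together with r = 0.54 and rho = 0.55 (permutation p = 0.031 and 0.0287), which after adjustment over 4 pairs gave 0.062 and 0.0574. Within mice 190 to 238 r was 0.80 over 11 tumors, and without the 2 tumors farthest from the Foxm1 median it was 0.67. Mybl2 and Foxm1 had r = 0.29 (permutation p = 0.278 after adjustment), and 0.01 within mice 190 to 238.

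Between tumors, members spread about as much as other genes. Over the 15 libraries without sgControl tumor 1, the SD was taken of log2 of FPKM over the library median. It ran from 0.319 for Plk1 to 0.827 for Cdc20, with a median of 0.474 against 0.462 for all tested genes. After Cdc20 came Cdc25c with 0.793 and Ccnb2 with 0.674, so that genes of the same role stood at both ends: Ccnb1 was at 0.339. Taken per library, as the median over the 34 genes of log2 FPKM over the library median, the sgControl-labelled tumors lay between 1.51 and 2.57 (median 2.17) and the sgKdm5a-labelled tumors between 1.36 and 2.27 (median 1.67). The groups overlapped, with sgControl tumor 5 at 1.51 and sgKdm5a tumor 5 at 2.27 on the far side of their groups.

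Single tumors shifted nearly the whole set. In sgControl tumor 3, 17 of 34 genes were at their highest of all 16 tumors and 0 lay below the gene's median. In sgKdm5a tumor 8, 33 of 34 lay below the median, and 12 were the lowest of the 15 tumors other than sgControl tumor 1. In sgControl tumor 5, 33 of 34 lay below the median as well. By contrast 17 of 34 lay below it in sgKdm5a tumor 2. There Ccnb2, Ttk and Anln deviated by -1.54, -1.11 and -1.03 from the gene's median on the log2 scale, whereas Cdc20, Foxm1 and Cdc25c deviated by 1.51, 0.68 and 0.65. In sgKdm5a tumor 5 and sgControl tumor 4 most genes were above the median, with 5 and 3 of 34 below it, but single genes stood apart. In the former Cdc20 deviated by 1.59 and Foxm1 by -0.69. In the latter Tpx2 and Kif4 deviated by 1.86 and 1.43, and Aurka and Ube2c by -1.22 and -1.01. These genes were chosen after their values were seen.

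**Figure D4:**
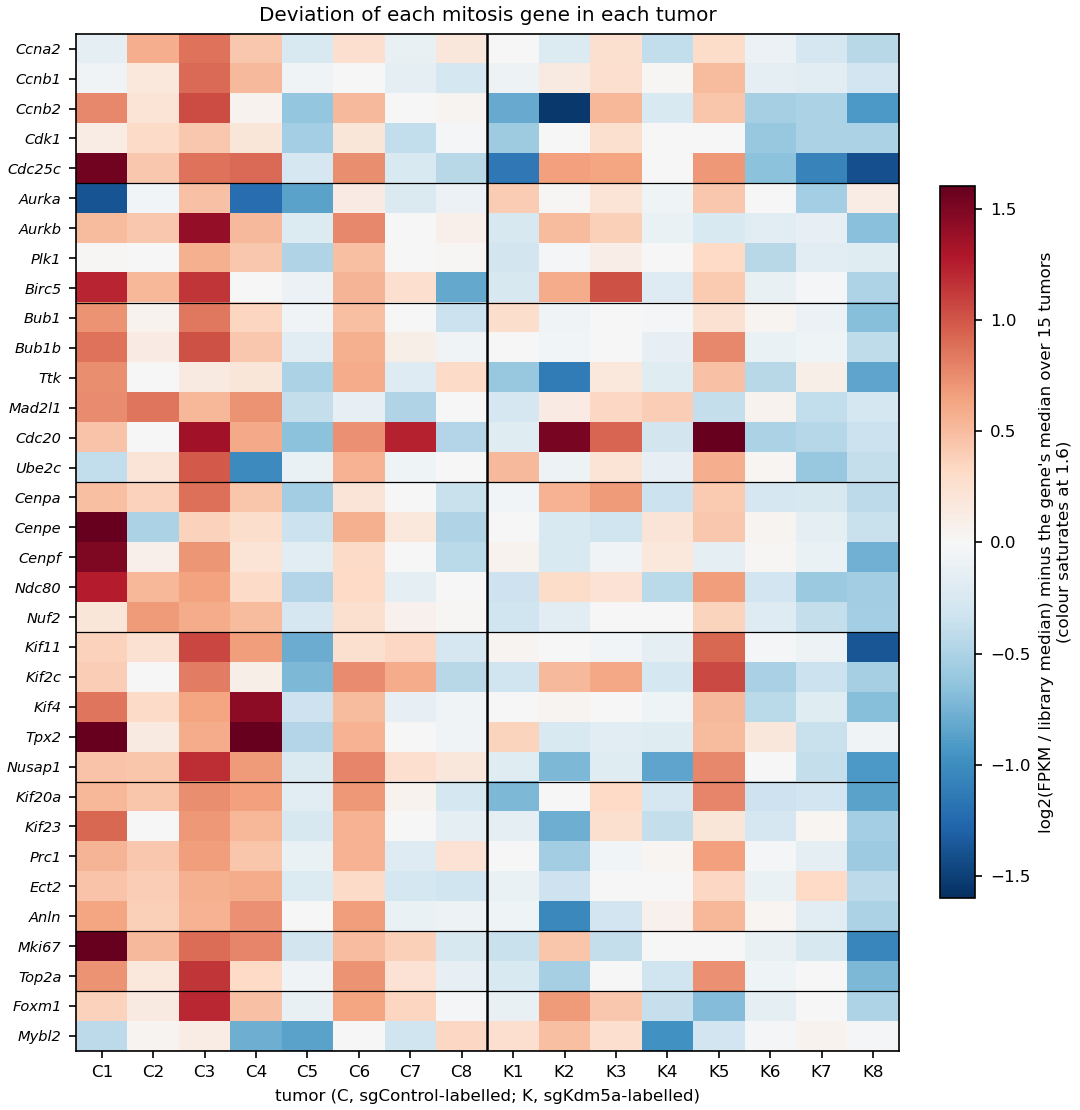
Deviation of each mitosis gene (rows, in blocks by role) in each tumor (columns C1 to C8 sgControl-labelled, K1 to K8 sgKdm5a-labelled), as log2 of FPKM over the library median minus the gene's median over the 15 tumors other than C1. Colour saturates at 1.6. C3 and C6 are mostly above and C5 and K8 mostly below the medians, whereas K2 holds both strong colours.

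The library of sgControl tumor 1 treated the mitosis genes unevenly. It had the lowest FPKM of all 16 tumors for 30 of 34 genes, the others being Ccnb2, Cdc25c, Cenpe and Mki67. Divided by its own library median, Mki67 stood at 33.5, Birc5 at 15.8, Aurka at 1.46 and Mybl2 at 0.976. The deviations of the 34 genes from their medians had an SD of 0.766 there, against 0.220 to 0.594 in the other tumors. Divided by the library median, the genes thus spread more in this tumor than in any of the other 15.

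Of 149 other mitosis genes in 9 lists, 148 were tested, Aurkc being below the filter, and 0 were called in either direction (limma, adjusted p at least 0.852). At an unadjusted p under 0.05, 1 was higher, Zwint, and 2 were lower, Cenpn and Cenpt, against a background of 3.72% and 0.701%. Their median difference was 0.01, or 0.20 below that of all tested genes, and 119 of 148 lay below the all-gene median. Without sgControl tumor 1, 124 of 148 were below 0, 4 were higher and 26 lower at an unadjusted p under 0.05 (background 3.71% and 5.12%), and the smallest adjusted p was 0.341.

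By list, differences below 0 with all tumors numbered 5 of 11 for cyclin and CDK1 regulators, 19 of 29 for kinetochore and centromere, 6 of 9 for checkpoint and passenger genes, and 5 of 17 for the APC/C and separase. The share over all tested genes was 23.0%. They numbered 9 of 18 for condensin and cohesin, 12 of 22 for kinesins and spindle, 5 of 12 for centrosome and centriole, 6 of 10 for cytokinesis, and 5 of 20 for DREAM, MuvB, E2F and FOXM1 control. Without sgControl tumor 1 the counts, in the same order, were 8, 25, 7, 12, 17, 21, 11, 9 and 14, against 51.8% of all tested genes.

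The genes of smallest p in each list, none of which passed, had differences in both directions with all tumors. Bora, which activates PLK1, had 11.2 against 6.75 FPKM by group median with a difference of -0.53, and Cdkn3, a CDK phosphatase, 24.4 against 16.2 FPKM with -0.51. The inner kinetochore genes Cenpn and Cenpt had -0.63 and -0.52. Condensin subunit Ncapd2 and the cohesin acetyltransferase Esco2 had -0.44 and -0.56, the spindle genes Kif15 and Dlgap5 -0.44 and -0.50, and the centrosome genes Cdk5rap2 and Cenpj -0.49 and -0.53. For Pbk, a mitotic kinase, the medians were 121 and 73.1 FPKM with a difference of -0.63, and Depdc1b had -0.24.

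On the other side, Anapc1, the largest APC/C subunit, had 14.3 against 18.4 FPKM by median with a difference of 0.61, and Cdc26 had 0.55. Rbl1, which encodes p107, the pocket protein most like p130, had 10.5 against 14.8 FPKM with 0.53, and all 8 sgKdm5a-labelled tumors lay above its sgControl median, which held for 5.14% of all tested genes. E2f5 had 0.46, Sgol2 0.28 and Mad2l1bp 0.22. Without sgControl tumor 1 these 6 differences were 0.34, 0.28, 0.33, 0.23, 0.03 and 0.05, so each moved towards 0. The 12 lower differences of the preceding genes moved away from 0, to between -0.85 (Pbk) and -0.37 (Depdc1b). Over all tested genes the share below 0 rose likewise, from 23.0% with that tumor to 51.8% without it.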

How the data were processed

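Total RNA was column-purified and sequenced from libraries of a stranded protocol, per the labels' protocols. The values the authors deposited were read as FPKM; the sheet's name speaks of counts, but the values are not whole. Tools named in the submitters' processing notes, with no roles given, are STAR 2.5.1b and Cufflinks 2.2.1, with build mm9. Depth is unknown. Replicates are tumors of separately numbered mice, per the file headers. Of 24043 entries, 27 with names turned into dates were left out. Genes reaching 1 FPKM in 8 or more of the 16 libraries were tested on log2(FPKM + 1), with a pseudocount of 1, by limma 3.58.1 (trend, robust variance) in R 4.3.3 with Benjamini-Hochberg adjustment over 13123 genes at a threshold of 0.05, a fit tested on simulated data. Intervals are 95% intervals. Permutation tests used scipy 1.17.1. Near-identical transcripts (95% identity over 200 bases) were found with blastn 2.17.0 in GENCODE vM21 transcripts.

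The genes and lists were chosen with earlier results of these data known. Full values are given, in each role, for the gene of smallest p and of highest mean, and always for Mki67, Top2a, Aurka, Ccnb1, Cdk1, Foxm1 and Mybl2, and in each other list the 2 genes of smallest p are named. Alternatives were median scaling, quantile normalization, other filters, a pseudocount of 0.1, sample weights, tumor number as a block, the mouse number series as a covariate or 190 to 238 alone, and leaving out each tumor. Tumor numbers 1 to 8 in the titles do not pair the samples.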

Additional observations from a re-analysis of the deposited data

Results flagged for a closer look

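In each group of 8 tumors the highest and lowest value of each mitosis gene was compared with its neighbour. Among 68 groups examined, 5 held a value whose gap to the next, as a share of the group's range, exceeded Dixon's 95% critical value for 8 samples, where chance gives about 1 in 20.

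In sgKdm5a tumor 5, Bub1b was at 52.1 FPKM with the next tumor at 33.1 FPKM, Nusap1 at 89.2 FPKM with the next at 57.1 FPKM, and Top2a at 181 FPKM with the next at 121 FPKM. All 3 flags of the sgKdm5a-labelled group thus fell in the same tumor. In sgControl tumor 4, Tpx2 was at 180 FPKM with the next tumor at 74.2 FPKM, and Kif4 at 59.8 FPKM with the next at 32.0 FPKM. Tpx2 and Kif4 both encode spindle proteins, and Aurka was at 19.4 FPKM in that tumor. Without sgKdm5a tumor 5, 28 of 34 differences were below 0 with a median of -0.18, and without sgControl tumor 4, 20 of 34 with a median of -0.05, against 24 of 34 and -0.12 with all tumors.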

How the results depend on the processing

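No mitosis gene and no other listed mitosis gene passed the adjusted threshold in the main setting or in any of the 26 others, and the smallest adjusted p of a mitosis gene in any setting was 0.0824 (Nusap1, with sample weights, which gave sgControl tumor 1 a weight of 0.0376). The median of the mitosis genes stayed below that of all tested genes in each setting. The number of all genes called higher, 1 in the main setting, was 0 with median scaling, quantile normalization, no filter, a mean filter, a pseudocount of 0.1 and median scaling without sgControl tumor 1, was 2 with sample weights (and 3 lower), and was 6 with mice 190 to 238 alone.

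At an unadjusted p under 0.05 the number of lower mitosis genes, 1 in the main setting, was 12 with median scaling (5.2% of all tested genes), 13 with quantile normalization (5.46%), 19 with sample weights (8.97%), 8 with median scaling without sgControl tumor 1 (4.59%), and 0 with mice 190 to 238 alone, the number series as a covariate, or the replicate block (0.632%, 0.572% and 0.663%). For the other mitosis genes, 1 higher and 2 lower in the main setting, the counts were 3 and 30 with median scaling, 3 and 34 with quantile normalization, 5 and 55 with sample weights, 4 and 24 with median scaling without sgControl tumor 1, 3 and 5 with no filter, and 0 and 0 with mice 190 to 238 alone. Over all tested genes the shares higher and lower in the main setting were 3.72% and 0.701%. For the 6 other settings, in the same order, they were 4.74% and 5.2%, 5.01% and 5.46%, 8.87% and 8.97%, 4.07% and 4.59%, 3.2% and 1.02%, and 4.5% and 0.632%. Lower other mitosis genes were 0 with the covariate and 1 with the replicate block. Same-numbered tumors had correlations of deviations between -0.31 and 0.36, 1 of 8 sgControl-labelled tumors correlated best with its own number, and the block changed no call.

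The differences of 8 genes, above 0 in the main setting like the median of all tested genes, turned negative. With median scaling they were -0.10 (Ccnb1), -0.21 (Plk1), -0.23 (Birc5), -0.12 (Cdc20), -0.0018 (Ube2c), -0.14 (Cenpa), -0.15 (Kif2c) and -0.22 (Ect2). With quantile normalization, in the same order, they were -0.10, -0.21, -0.22, -0.16, -0.014, -0.15, -0.17 and -0.20, with sample weights -0.17, -0.36, -0.34, -0.55, -0.15, -0.27, -0.46 and -0.20, and with median scaling without sgControl tumor 1 -0.12, -0.23, -0.11, -0.12, -0.060, -0.10, -0.13 and -0.18. In mice 190 to 238 Plk1 was at -0.11, Birc5 at -0.10, Cdc20 at -0.19, Cenpa at -0.073, Kif2c at -0.22 and Ect2 at -0.063, and with the covariate Birc5 was at -0.012. The cause was not tested.

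Leaving out each tumor in turn gave 0 to 2 genes called higher and 0 to 1 lower among all genes, 0 to 11 mitosis genes lower at an unadjusted p under 0.05, and 0 to 4 other mitosis genes higher and 0 to 26 lower, the largest counts of lower genes without sgControl tumor 1. Over all tested genes 2.39% to 6.42% were then higher and 0.434% to 5.12% lower, the largest lower share again without sgControl tumor 1. Differences that changed sign ran from -0.13 to 0.18 for Birc5, -0.23 to 0.073 for Bub1, -0.30 to 0.025 for Bub1b, -0.40 to 0.046 for Ccna2, -0.14 to 0.30 for Ccnb1, -0.13 to 0.30 for Cdc20, -0.28 to 0.073 for Cdk1, -0.12 to 0.24 for Cenpa, -0.20 to 0.14 for Ect2, -0.32 to 0.11 for Kif11, -0.15 to 0.22 for Kif2c, -0.23 to 0.10 for Mad2l1, -0.25 to 0.13 for Plk1 and -0.079 to 0.43 for Ube2c. Depth is unknown, so no difference can be set against counting error.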

Other observations

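The ratio of Aurka to Mki67, chosen after its values were seen and so not tested, was 0.0436 to 0.660 with a median of 0.398 in the sgControl-labelled tumors and 0.438 to 1.33 with a median of 0.716 in the sgKdm5a-labelled tumors. Both values come from the same library, so the scale of the library drops out. The ratio of Cdc20 to Ccnb2 was 0.809 to 2.68 in the sgControl-labelled and 1.10 to 9.54 in the sgKdm5a-labelled tumors, where the highest belonged to tumor 2 and the next, 2.55, to tumor 5.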
